A study of Mus musculus with 4 samples.

Results

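Glycolysis was followed here in the hippocampus of handled control mice through the genes of 8 enzymes: Hk1, Aldoa, Tpi1, Pgk1, Pgam1, Eno2, Ldha and Ldhb. They were taken from a list of 10 genes, and every non-control probe set that the array's annotation gives exactly 1 symbol from that list was kept. Gpi1 and Eno1 were named by no probe set in the annotation used here and were not analysed. This gave 10 probe sets of 12422, since Aldoa and Ldhb had 2 each. Of the 10, 9 passed the filter on dim probe sets and were tested among 7453.

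The RNA came from hippocampal area CA1 of young male C57BL/6J mice, an inbred laboratory strain, which had been handled and for which the labels name no other treatment. These controls belonged to an experiment in which other mice were shocked, and each was taken 1, 2, 4 or 6 hours after the last shock of those mice. There was 1 array at each time, so time cannot be told apart from differences between animals, dissections or arrays. Whether 1 mouse or several gave a sample is not stated in the labels, and no shocked sample was analysed here.

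Glycolysis splits glucose into pyruvate in the cytosol and yields ATP and NADH without oxygen. In brain it runs in neurons and in glia, and lactate dehydrogenase turns its pyruvate into lactate or lactate back into pyruvate, depending on cell type and demand. Several steps are carried by paralogous enzymes that differ between tissues, of which Eno2 is best known as the enolase of neurons. In tissue RNA, fewer cells of a type and less RNA per cell cannot be told apart.

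The 1-hour array stood apart in its control probe sets, and the arrays of 2, 4 and 6 hours are called the later ones below. Gapdh, the glycolytic dehydrogenase that the array carries as a quality control, had a 3' over 5' signal ratio of 4.52 at 1 hour, against 1.18 to 1.37 later. Its middle probe set read 18243 at 1 hour, against 29241 to 31432 later, and its 3' probe set 38742 at 1 hour, against 30670 to 33416 later. The 3' over 5' ratio of beta-actin, the other such control, was 2.34 at 1 hour, against 1.76 to 2.00 later. Of the markers of CA1 pyramidal cells, Wfs1 read 2292, 2274, 2797 and 1964 from 1 to 6 hours, while Mpped1, Fibcd1 and Gpr161 were not named in the annotation used here. Prox1 of dentate granule cells read 25.1 to 59.8, around the floor of 35.1 that was set for dim probe sets. Trpc6 of the dentate list was dim too (3.6 to 42.4), but other markers in it were brighter. Dsp read 175 to 330, Lct 282 to 405 and Calb1 1545 to 1755. Tdo2 read 38.0 at 1 hour, against 109 to 162 later, and was too dim to be tested. Of the 3 tested dentate markers 2 were higher at 1 hour and 1 lower. Summed signals of the markers of CA1 (6868), of dentate gyrus (2373), of CA3 and CA2 (7078) and of oligodendrocytes (22826) at 1 hour lay within the range of the later samples. Most of the dentate sum was Calb1 (1755). Of CA1 markers 2 were higher at 1 hour and 2 lower. Man1a read 1390, against 790 to 1071 later (0.62), and Pou3f1 489, against 588 to 726 (-0.36). Of oligodendrocyte markers 3 were higher and 4 lower (median -0.07). Mobp and Mbp carried their sum. Mag read 487 at 1 hour, against 958 to 1478 later (-1.27), and Cldn11 362, against 557 to 875 (-0.93). The sum for CA3 and CA2 is mostly that of Rgs14, a signalling regulator of CA2, and Nptx1, a neuronal pentraxin in that list, had 418 at 1 hour, against 1004 to 1354 later (-1.42, SD of the other 3 0.22, adjusted p = 0.0211, limma; lost under 4 of 9 alternatives). At 1 hour the sums for astrocytes, endothelium, choroid plexus and blood lay above the later range. Those for neurons and microglia lay below it. By count, 3 astrocyte markers were higher at 1 hour and 4 lower (median -0.01), with Gja1 and Gfap carrying the sum, and 3 endothelial markers were higher and 3 lower. Of blood markers 3 of 3 were higher, and of microglial markers 2 were higher and 4 lower. The widest gap was that of choroid plexus, with 3316 at 1 hour, against 936 to 1253 later, and 3 of its 4 tested markers were higher by 0.47 to 3.39 log2 units, while Igfbp2 differed by 0.0036. Its defining marker Ttr, transthyretin, read 2246 at 1 hour, against 143 to 353 later (3.39, adjusted p = 0.0142, limma; lost under 3 of 9 alternatives). Astrocyte markers summed to 12124 at 1 hour, against 9780 to 10898 later, and blood markers to 3916, against 2642 to 3413 later. Endothelial markers summed to 2787 at 1 hour, against 1862 to 2786 later, microglial ones to 6205, against 6370 to 7375, and neuronal ones to 55895, against 57136 to 59953. Coch and Pcp4 of CA3 and CA2 and Cnp of oligodendrocytes were below the floor in all 4 samples. The part of these in the results below was not tested.

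The 9 tested probe sets of the glycolytic enzymes were bright in all 4 controls and varied by less than 2-fold between any pair of them. The tenth, the second of Ldhb, was below the floor throughout. They lay between the 92.4th and the 99.3rd percentile of mean log2 signal among all non-control probe sets. Their coefficient of variation on the linear scale ran from 6.66% to 19.0%. Over the 4 samples, no probe set of the 9 spanned 1 log2 unit or more, where 17.9% of all tested probe sets did. A range of 0.5 log2 units or more was seen for 1 of the 9, Eno2, where 57.5% of all tested probe sets reached it. The median SD was 0.18 on the log2 scale for the 9, against 0.25 for all tested probe sets. Bright probe sets vary less on this array, so the 951 tested probe sets at least as bright as the dimmest of the 9, Ldhb, were set beside them too. Their median SD was 0.16, with 5.15% spanning at least 1 log2 unit and 29.3% at least 0.5. Against these the median SD of the 9 was slightly higher and their share of wide ranges lower, and no test was made of either. Among the later samples the median SD was 0.13 for the 9, 0.12 for the bright probe sets and 0.20 for all.

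**Figure D1:**
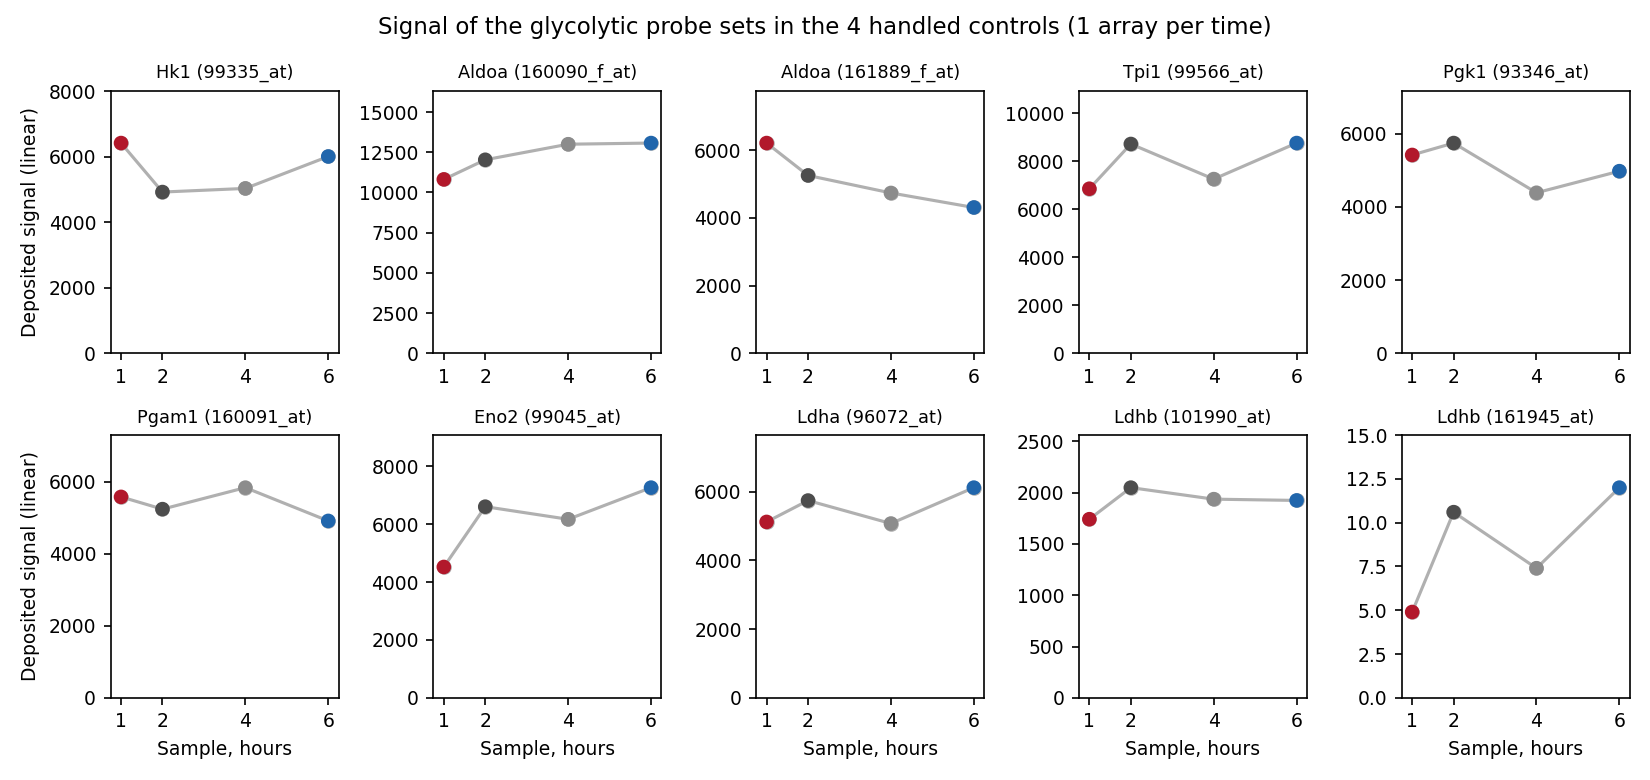
Deposited linear signal (y axis, from 0) of the 10 probe sets in the samples taken at 1, 2, 4 and 6 hours (x axis), 1 array per point, joined by lines for orientation. Eno2 is lowest at 1 hour (4524) and the 2 Aldoa probe sets run in opposite directions, while the second Ldhb probe set stays at 12 or less.

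**Figure D2:**
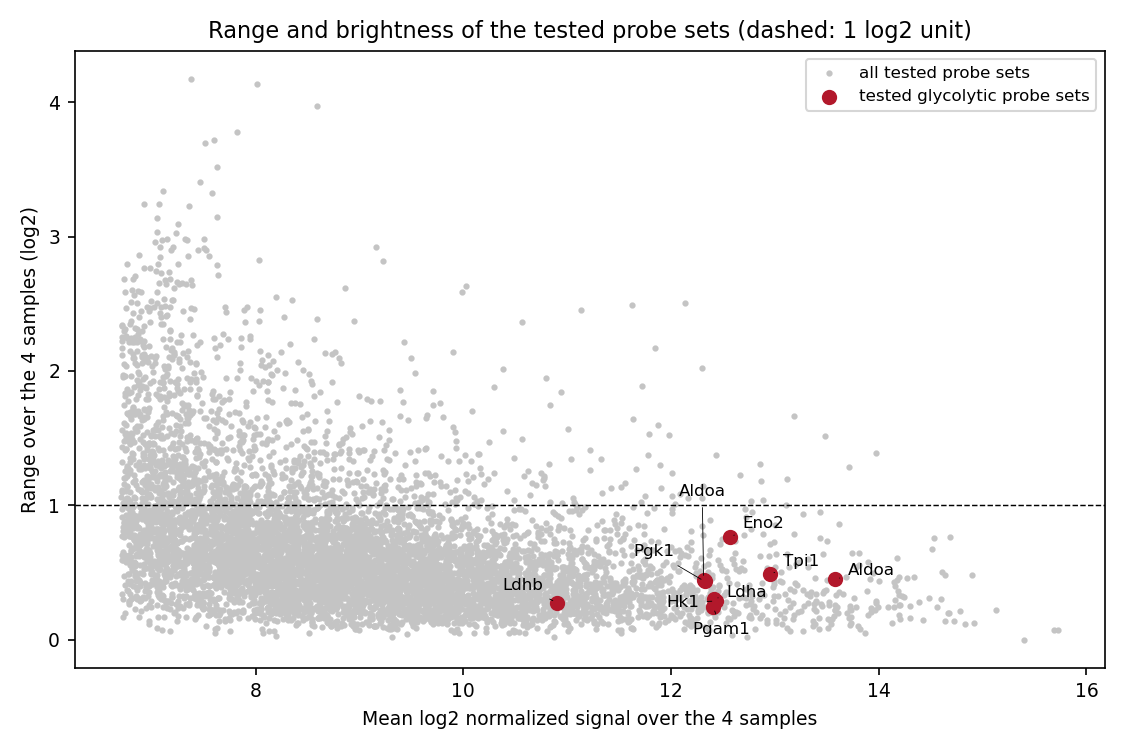
Range over the 4 samples on the log2 scale (y axis) against mean log2 normalized signal (x axis) for the 7453 tested probe sets in grey and the 9 glycolytic ones in red. The 9 lie in the bright part of the array, between ranges of 0.243 and 0.766, below the dashed line at 1.

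Hexokinase 1 (Hk1), which phosphorylates glucose and commits it to the cell, was read by 1 probe set. Its signal was 6418, 4922, 5032 and 6007 at 1, 2, 4 and 6 hours, so the 1- and 6-hour samples were above the other pair. On the normalized log2 scale the 1-hour sample lay 0.21 above the mean of the other 3, whose SD was 0.13. The limma fit of that sample against the other 3 gave an adjusted p of 0.502.

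Aldolase A (Aldoa), which cleaves fructose 1,6-bisphosphate into triose phosphates, was read by 2 probe sets that disagreed. The brighter, 160090_f_at, had 10814, 12035, 13002 and 13075 in the order of hours, lowest in the 1-hour sample. The dimmer, 161889_f_at, had 6212, 5254, 4737 and 4307, highest in the 1-hour sample and lowest at 6 hours. The 1-hour sample lay at -0.41 for the brighter probe set, with an SD of the other 3 of 0.05, and at 0.30 for the dimmer, with an SD of 0.16. These differences moved with the normalization. That of the brighter was -0.23 on the deposited columns and -0.19 with equal medians, and that of the dimmer 0.39 and 0.42. The adjusted p was 0.0799 for the brighter and 0.377 for the dimmer in limma. The log2 difference between both probe sets was wider than in the 1-hour sample by 0.48 at 2 hours, 0.78 at 4 hours and 0.87 at 6 hours. Both names carry the suffix f, which on this kind of array marks probes that match several members of a sequence family. In the limma trend over time the brighter had a fitted change of 0.36 from 1 to 6 hours (95% interval -0.10 to 0.82) and the dimmer one of -0.45 (-0.87 to -0.03). The change of the brighter was 0.08 without the 1-hour sample and 0.69 without the 6-hour sample. Neither passed, with adjusted p of 0.750 and 0.740, and the dimmer had the smallest unadjusted p of the 9, at 0.0385. The direction of Aldoa over these samples therefore depends on the probe set.

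Triosephosphate isomerase (Tpi1), which interconverts both triose phosphates, had 6853, 8716, 7254 and 8755 in the order of hours. The 2- and 6-hour samples were high and the 1- and 4-hour samples low. The 1-hour sample lay 0.34 below the mean of the others on the log2 scale (-0.34, SD of the other 3 0.22, adjusted p = 0.372, limma). Over the 9 alternatives that difference ran from -0.47, without the 4-hour sample, to -0.22.

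Phosphoglycerate kinase 1 (Pgk1), which makes the first ATP of the pathway and is X-linked, had 5423, 5748, 4389 and 4980. Its highest value was at 2 hours and its lowest at 4 hours, where it lay at -0.29 against the other 3 (SD 0.12). Phosphoglycerate mutase 1 (Pgam1), which moves the phosphate group within phosphoglycerate, had 5585, 5245, 5842 and 4918. Its range of 0.24 on the log2 scale was the smallest of the 9, and the differences of its 1- and 2-hour samples changed sign when the columns were used as deposited or set to equal medians. For Pgk1 and Pgam1 the fitted 1-hour differences were 0.03 and -0.02, with adjusted p of 0.947 and 0.955 in limma. The 95% intervals were -0.37 to 0.43 for Pgk1 and -0.33 to 0.29 for Pgam1, so shifts smaller than these bounds were not resolved.

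Enolase 2 (Eno2), the neuronal form of the enzyme that makes phosphoenolpyruvate, varied most among the 9. It read 4524 at 1 hour, against 6608, 6172 and 7266 later, and the 1-hour value lay below all others. The difference was -0.63 on the log2 scale (SD of the other 3 0.13; 95% interval -0.95 to -0.32). In limma it had an unadjusted p of 0.00174 and an adjusted p of 0.0583, which did not pass 0.05. It passed under 1 of 9 alternatives, without the 4-hour sample, at -0.69 and an adjusted p of 0.0280. Over those alternatives the difference ran from -0.69 to -0.52. The range percentile of Eno2 among all tested probe sets was 69.3. Of the neuron markers tested, 7 of 11 were lower at 1 hour and 4 higher, and their median was -0.46, against a median of 0.05 for all tested probe sets. Tubb3, a neuronal tubulin, had 7370 at 1 hour, against 9562 to 10600 later (-0.54, adjusted p = 0.0397, limma), and its call was lost under 7 of 9 alternatives. The Tubb3 probe set carries the suffix f that was explained for Aldoa. Map2, a dendritic protein, was below the floor at 1 hour with 25.4, while Snap25, a synaptic membrane protein, differed by 0.0009 on the normalized log2 scale. Among the 4 higher markers, Nefm had 221 at 1 hour, against 125 to 184 later (0.59). Thy1, another of the 4, had 16086, against 12171 to 12972 later (0.18). Eno2 was thus low together with part of that list, beside the Gapdh ratio of 4.52, and the part of either was not tested.

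Lactate dehydrogenase is built from the subunits of Ldha, the form common in muscle and glycolytic tissue, and Ldhb, the form common in heart. Ldha had 5116, 5738, 5070 and 6113 in the order of hours, with the 2- and 6-hour samples above the other pair. Ldhb was read at 1742, 2049, 1937 and 1925 by 101990_at, with the 1-hour sample lowest. Their 1-hour differences were -0.22 for Ldha (SD of the other 3 0.14) and -0.19 for Ldhb (SD 0.07), with adjusted p of 0.483 and 0.572 in limma. The other Ldhb probe set, 161945_at, had signals below the floor in all 4 samples, 4.9 to 12, and was not tested. The level of Ldhb thus rests on 1 probe set.

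Eno2, Tpi1 and Ldha shared an order that was noticed after their values had been seen, with 2 and 6 hours above 1 and 4 hours. Ldhb had it on the normalized log2 scale only, where its 6-hour value was 10.907 and its 4-hour value 10.903. The share of all tested probe sets with that order was not counted, so it is not known how common it is. Eno2 and Tpi1 lie close together on chromosome 6, with 2 protein-coding genes, Lrrc23 and Spsb2, between them in the assembly GRCm38.p6. Ldhb is on chromosome 6 too, Ldha and Aldoa are on 7, and Hk1, Pgam1 and Pgk1 are on 10, 19 and X. The promoters of Eno2, Tpi1 and Ldha are shown so that their letters can be compared. Each runs from 250 bases before to 50 bases after an annotated start, in RefSeq's GRCm38.p6, read 5′ to 3′ on the gene's strand. Capitals mark ACGTG or its reverse complement CACGT, the core of the element that hypoxia-inducible factors bind in glycolytic genes. They are at chr6:124769624-124769923 on the minus strand for Eno2, chr6:124814109-124814408 on the minus strand for Tpi1 and chr7:46845554-46845853 on the plus strand for the first listed of 2 starts of Ldha.
Eno2: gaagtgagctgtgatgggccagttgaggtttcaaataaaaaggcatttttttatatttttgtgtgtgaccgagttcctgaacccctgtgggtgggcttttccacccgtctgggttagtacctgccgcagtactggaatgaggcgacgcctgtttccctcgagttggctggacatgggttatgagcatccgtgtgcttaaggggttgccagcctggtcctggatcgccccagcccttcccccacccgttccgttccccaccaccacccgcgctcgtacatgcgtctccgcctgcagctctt
Tpi1: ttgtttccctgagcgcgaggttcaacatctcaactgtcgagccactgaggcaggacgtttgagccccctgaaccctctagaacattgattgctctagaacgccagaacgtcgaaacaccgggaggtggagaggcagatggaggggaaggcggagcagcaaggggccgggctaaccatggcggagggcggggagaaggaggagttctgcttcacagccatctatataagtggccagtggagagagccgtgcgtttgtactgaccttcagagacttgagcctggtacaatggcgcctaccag
Ldha: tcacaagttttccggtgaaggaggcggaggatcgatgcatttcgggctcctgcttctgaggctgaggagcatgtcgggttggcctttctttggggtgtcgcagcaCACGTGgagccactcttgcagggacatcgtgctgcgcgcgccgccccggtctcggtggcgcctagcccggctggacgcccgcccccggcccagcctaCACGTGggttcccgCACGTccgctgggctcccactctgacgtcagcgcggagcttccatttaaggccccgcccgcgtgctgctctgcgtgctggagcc

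The Ldha promoter held 5 matches to ACGTG on both strands together, 4 of which overlap in pairs as the palindrome CACGTG. The Eno2 and Tpi1 promoters held none. All 8 genes matched the promoter table by symbol, and 5 of them (Hk1, Aldoa, Pgk1, Pgam1 and Ldha) had ACGTG in at least 1 of their promoters, where 21.8% of all 27025 genes in the table did. By promoter, 6 of 12 held it, against 19.6% of 32851. CACGTG was found for Ldha alone among the 8 genes, against 8.09% of all genes. By promoter, 1 of 12 held it, against 7.15% of all. GGGCGG, a GC box, stood in 6 of 12 promoters of the enzymes, for Aldoa, Tpi1, Pgk1, Pgam1 and Ldha, against 35.7% of all. Windows 2 and 3 of Aldoa overlap and share their matches to ACGTG and to GGGCGG. The counts by promoter for these motifs therefore include the same sites in both windows. The windows of the enzymes are rich in G and C (51.3% to 67.3%), and a match is only a description of letters.

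Set side by side, 7 of 9 probe sets had their highest or lowest value at 1 hour, or 77.8%, against 73.6% of those 951 and 64.2% of all. The 1-hour sample was below all others for 5 of 9 probe sets (the brighter Aldoa, Tpi1, Eno2, Ldhb and, after normalization, Ldha), where this held for 29.1% of all tested probe sets. It was above all others for 2 (Hk1 and the dimmer Aldoa), against 34.9% of all. By gene, with the brightest probe set each, 6 of 8 were lower and 2 higher, with a median of -0.21, against 0.05 for all tested probe sets. The median was -0.16 on the deposited columns and -0.12 with equal medians. In the limma fit 0 of 9 passed an adjusted p of 0.05, against 2.35% of all tested probe sets. At an unadjusted p under 0.05 there were 2, the brighter Aldoa and Eno2, against 15.8% of all.

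The 2-hour sample lay at a median of 0.17 over the 8 genes with 7 higher, the 4-hour sample at -0.06 with 4 higher, and the 6-hour sample at 0.15 with 6 higher. On the deposited columns, and with equal medians, the differences of Aldoa and Pgam1 at 2 hours were negative. None of the 9 probe sets passed in those 3 fits, where the share of all tested probe sets was 0%. These medians moved with the settings. The 2-hour median was 0.11 on the deposited columns, 0.058 with equal medians and 0.05 without the 1-hour sample. The 4-hour median was -0.16 without the 1-hour sample, -0.009 without the 2-hour sample and -0.032 without the 6-hour sample. Leaving out the 1-hour sample gave a 6-hour median of 0.08, and averaging each gene's probe sets gave 0.075. No pair of samples was 2-fold apart for any of the 9, while 4.01% to 8.75% of all tested probe sets were. The widest gap was that of Eno2 between 6 hours and 1 hour, 0.77 on the log2 scale.

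**Figure D3:**
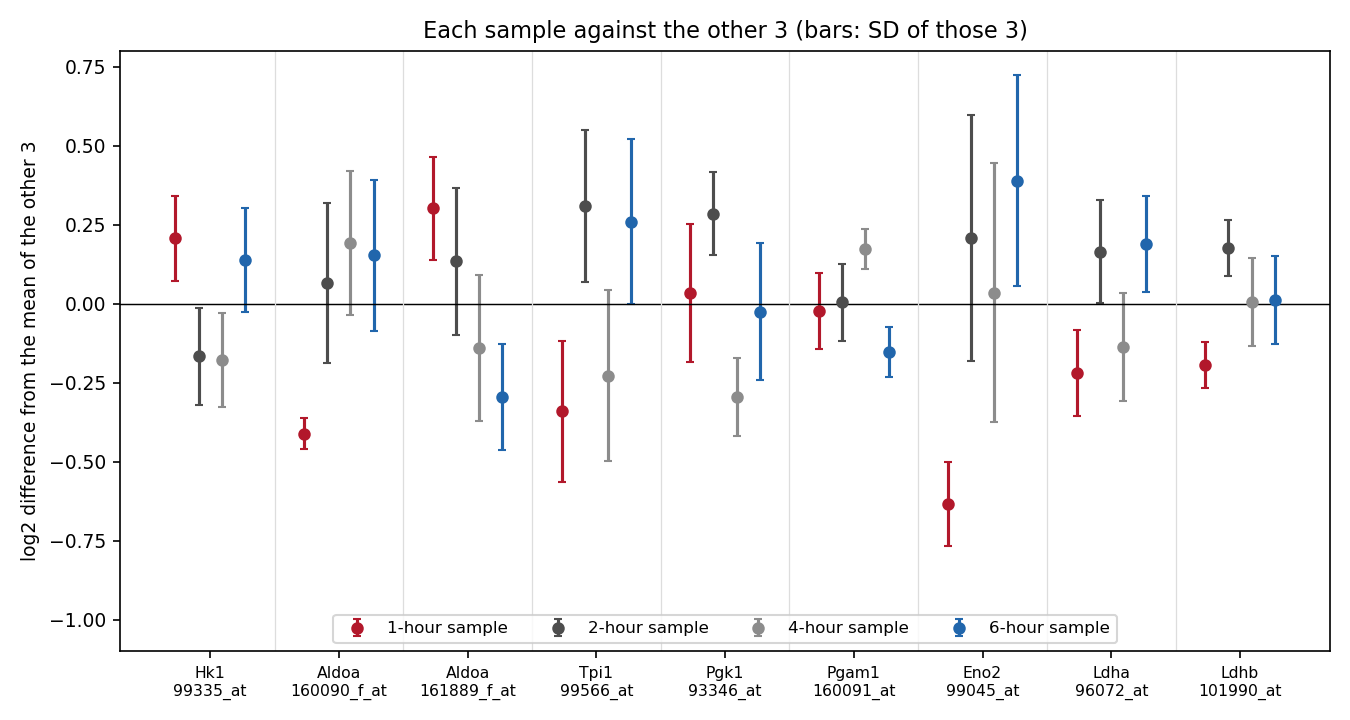
Difference of each sample from the mean of the other 3 on the normalized log2 scale (y axis) for the 9 tested probe sets (x axis), with the samples in the order of hours and bars for the SD of those 3. The 1-hour point in red lies at -0.63 for Eno2 and at -0.41 and 0.30 for the Aldoa probe sets.

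A linear trend over the hours was called for none of the 9 probe sets in limma, and for 0% of all tested probe sets. At an unadjusted p under 0.05 there was 1 of 9, against 6.24% of all. Fitted changes from 1 to 6 hours were positive for 5 and negative for 4, and adjusted p ran from 0.740 to 0.998. Eno2 had the largest, 0.57 (95% interval -0.02 to 1.17), and Hk1 the smallest in size, -0.003 (-0.51 to 0.50). Without the 1-hour sample the fitted change was 0.17 for Eno2. The fitted changes of Hk1, Tpi1 and Ldhb changed sign without that sample, and a p above the threshold does not show that these genes stayed level.

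Other enzymes of the same pathway reached wider differences at 1 hour. The list of other glycolytic enzymes and regulators held 25 genes, of which 15 were named and 9 tested. At 1 hour 6 of the 9 were lower and 3 higher (median -0.33), and 2 passed, both lower, where 2.11% of all tested probe sets passed as lower and 0.242% as higher. Pkm, the pyruvate kinase of brain and muscle, had 4387 at 1 hour, against 11156, 11215 and 13128 later (-1.5, SD of the other 3 0.14, adjusted p = 0.00620, limma). A second Pkm probe set, 162032_f_at, had 6179 at 1 hour, against 6446 to 7257 later, with a difference of -0.22 and an adjusted p of 0.440. Pfkm, the muscle-type phosphofructokinase of the rate-limiting step, had 1016 at 1 hour, against 2920, 1963 and 3055 later (-1.33, SD 0.37, adjusted p = 0.0482, limma). The calls of Pkm and Pfkm were lost under 3 and 5 of 9 alternatives.

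Pklr encodes the pyruvate kinases known from liver and erythrocytes and had the widest range of the list, 2.85, with 376 and 242 at 1 and 6 hours and 55.2 and 65.5 at 2 and 4 hours, and did not pass (adjusted p = 0.287, limma). Pfkp, the platelet-type phosphofructokinase, had 685, 669, 507 and 770, and 473, 742, 570 and 579 on a second probe set with another order, and passed on neither. Aldoc, the aldolase of brain, had 11024, 12442, 10462 and 10949, a difference of -0.19 in the 1-hour sample (SD 0.15). Eno3, the muscle enolase, had 271 at 1 hour, against 347 to 412 later (-0.43, SD 0.14), and did not pass. Ldhc and Pgk2, both known from testis, were below the floor in all 4 samples. These differences stand beside the Gapdh ratio of 4.52, where the 5' probe set read 8571 at 1 hour, against 24344 to 27757 later.

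**Figure D4:**
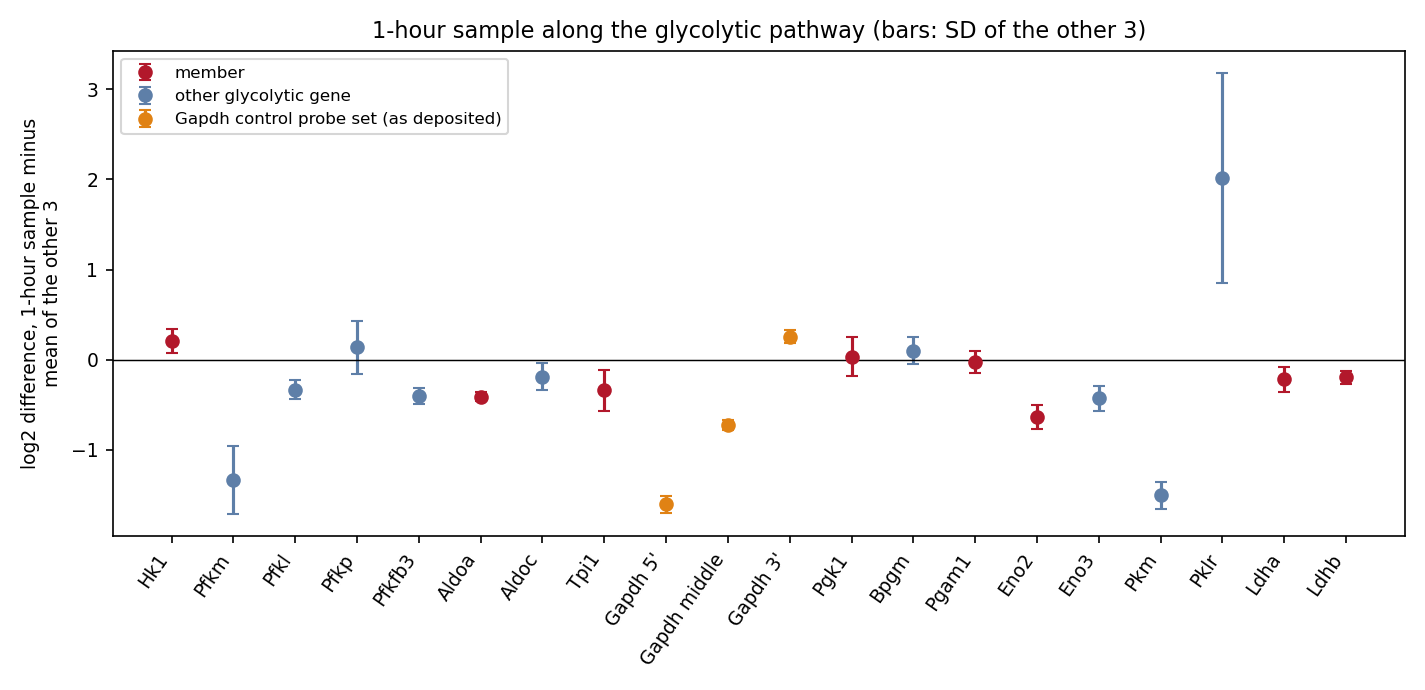
Difference of the 1-hour sample from the mean of the other 3 on the log2 scale (y axis) for tested genes in pathway order (x axis, brightest probe set each), with bars for the SD of the other 3. Members in red lie between -0.63 and 0.21, Pfkm and Pkm at -1.33 and -1.5, and the Gapdh control goes from -1.60 at its 5' end to 0.26 at its 3' end. The Gapdh points are on the log2 scale of the deposited signal, the others on the normalized one.

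Transport of glucose and lactate was covered by 14 listed genes, of which 5 were tested, and 1 of the 5 passed in the 1-hour sample, where 2.35% of all tested probe sets did. Bsg, or basigin, the partner that brings lactate transporters to the membrane, had 1776 at 1 hour, against 4308, 4514 and 4288 later (-1.33, SD 0.04, adjusted p = 0.00620, limma). Its call was lost under 2 of 9 alternatives. Slc2a1, the glucose transporter of endothelium and astrocytes, had 302, 439, 241 and 261, and Slc2a3, the glucose transporter of neurons, had 486, 560, 585 and 759. Slc2a5, a fructose transporter, had 235, 282, 229 and 173. None of these transporters passed, and the lactate transporters Slc16a1 and Slc16a7 were too dim to be tested.

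Of the pyruvate dehydrogenase and citric acid cycle list, 23 genes were tested, with 13 higher and 10 lower at 1 hour (median 0.04), and 1 was called, against 2.35% of all tested probe sets. That was Dlst, a subunit of the oxoglutarate dehydrogenase complex, with 350 at 1 hour, against 691 to 825 later (-1.08, SD 0.12, adjusted p = 0.0447, limma). A second Dlst probe set gave a difference of -1.08 as well but an adjusted p of 0.0932. Pcx, pyruvate carboxylase, had 91.8 at 1 hour, against 143 to 241 later, but its second probe set had 144, 69.8, 253 and 133. Pdk4 and Pdk1, kinases that shut pyruvate dehydrogenase off, had 202, 243, 164 and 114, and 342, 221, 279 and 398. Pcx, Pdk4 and Pdk1 did not pass.

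The pentose phosphate pathway, which branches off at glucose 6-phosphate, had 7 tested genes with 4 higher and 3 lower at 1 hour (median 0.04), and 1 was called, against 2.35% of all. Tkt, transketolase, had 635 at 1 hour, against 1209 to 1561 later (-1.1, SD 0.20, adjusted p = 0.0378, limma). Pgls, Pgd and Rpe had ranges of 0.83, 0.55 and 0.32 and did not pass. For Dlst and Tkt alike the call was lost under 5 of 9 alternatives.

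In the 3 remaining pathway lists no gene passed in any of the fits. The malate-aspartate and glycerol phosphate shuttles, which carry the NADH of glycolysis into mitochondria, had 6 tested genes with 4 higher and 2 lower at 1 hour (median 0.21). Mdh1, cytosolic malate dehydrogenase, had 418, 306, 346 and 319, and Slc25a11, the malate carrier, 1592, 1142, 1293 and 1125. Gpd2 and Got2 had ranges of 0.41 and 0.39. Glycogen and gluconeogenesis had 16 tested genes, 8 higher and 8 lower at 1 hour (median -0.02). Phkg1, Ppp1r3c, Pygm and Pgm2 had the widest ranges, 1.33, 1.24, 1.15 and 1.14, at signals of 66.8 to 231. The hypoxia list outside glycolysis had 13 tested genes, 9 higher and 4 lower at 1 hour (median 0.09). P4ha1, a collagen prolyl hydroxylase, had 238, 610, 440 and 289, and Epo, Vhl and P4ha2 had ranges of 1.06, 0.88 and 0.87. Hif1a, the oxygen-regulated subunit itself, had 2538, 2174, 2294 and 2293.

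Likeness to the enzymes was measured as the root mean square distance, over the 4 samples, between mean-centred log2 values and the median profile of the 8 genes. That profile was -0.15, 0.13, -0.05 and 0.11 in the order of hours, and Ldha lay closest to it among the 8, at 0.03, and Hk1 furthest, at 0.20. Outside the 8 genes the nearest were Ywhah, a 14-3-3 protein, Cs, the citrate synthase that opens the citric acid cycle, Macf1, a cytoskeletal crosslinker, Dazap1, an RNA-binding protein, and Inpp5b, an inositol phosphatase. Their distances were 0.019 to 0.023, and Cs had signals of 2256, 2701, 2547 and 2758. A shallow profile over 4 arrays has many neighbours: 431 of 6733 tested probe sets with 1 symbol, or 6.4%, lay within 0.1. Of the 8 genes themselves only Ldha and Ldhb (0.057) lay within it, and the others were at 0.104 to 0.204.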

How the data were processed

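Each sample was measured on 1 array of 1 colour. The deposited values are intensities on a linear scale, already scaled by the authors to a common level, as the values themselves show: trimming 2% of the values at both ends left a mean of 500.3 in every column. The sources used here do not name the array software. Detection calls and scan batches were not analysed here.

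Controls (66 probe sets) were left out. Of 12422 probe sets, 10833 had 1 symbol, 396 several and 1193 none. Columns were quantile normalized, floored at the 20th percentile (a signal of 35.1) and put on the log2 scale, and probe sets whose mean reached the 40th percentile were tested (7453). Two-sided tests used limma 3.58.1 in R 4.3.3 with an intensity trend and Benjamini-Hochberg adjustment over all tested probe sets. One fit took time as a linear term (2 residual degrees of freedom). The others set each sample against the other 3, assuming that it varies as they do, and so describe single arrays, not times. P-values measure only the spread between these samples, which may be technical. The fits were also run on simulated data, and that run does not show that changes as small as those seen here would be called.

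Signals in the text are as deposited and differences, of each sample from the mean over the other 3, are on the normalized log2 scale. Those of the Gapdh control probe sets are the exception and are on the log2 scale of the deposited signal. A brightness percentile describes a probe set, not an amount of transcript. The members, the 7 pathway and 10 marker lists and the fits were chosen with earlier results of these data known. Genes named were drawn from all members, the 4 tested genes of each pathway list with the widest range, list genes that passed, the 2 markers of each list with the widest range or those below the floor (not all of them printed), and the 5 nearest in profile. Some genes were named outside that rule, after their values were seen. They are Aldoc, Eno3, Hif1a, Wfs1, Snap25, Tubb3, Rgs14, Gja1, Gfap, Igfbp2, Lct, Calb1, Mobp, Mbp, Nefm and Thy1. Genes of the pathway lists given as below the floor or too dim were named in that way too. Symbols, neighbours and promoters come from RefSeq's GRCm38.p6. Figures used matplotlib 3.10.9 in Python 3.11.15.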

Additional observations from a re-analysis of the deposited data

Results flagged for a closer look

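The Gapdh control stood out in the 1-hour sample at 2 positions. In its 5' probe set the gap between that sample and the nearest other was 0.888 of the whole log2 range over the 4 samples, and in its middle probe set 0.867, both above Dixon's 95% critical value for 4 samples. The 1-hour sample was the low one each time. None of the 9 tested glycolytic probe sets was above it. In all, 15 probe sets were examined, and chance passes about 1 in 20.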

How the results depend on the processing

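No glycolytic probe set passed the time trend test under any of the 11 alternatives run, and under the 8 run for the range no probe set of the 9 spanned 1 log2 unit. Against the other samples at 1 hour, the number of the 9 that passed was 0 under all alternatives but the one without the 4-hour sample, where Eno2 and Tpi1 passed, so leaving out a sample gave 0 to 2. The median 1-hour difference of the 8 genes stayed negative, at -0.26 to -0.12. Over all probe sets, the 175 called at 1 hour became 272 on the deposited columns, 3 with the floor at the 40th percentile, 365 without the filter on dim probe sets, 0 with eBayes without an intensity trend, and 87 to 242 when a sample was left out (87 without 2 hours, 108 without 6 hours). Without the filter 217, 227 and 211 were called at 2, 4 and 6 hours, against 0 with it. Leaving out a sample gave 0 to 1 at 4 hours (1 without 1 hour) and 0 to 3 for the time trend (3 without 2 hours). With equal medians 78.4% of calls at 1 hour were lower, and 79.8% on the deposited columns, against 89.7% of the 175. Without the filter only 11% of the 365 were lower, so the direction of the calls over all probe sets turned there, and with the floor at the 40th percentile 66.7% of the 3. At an unadjusted p under 0.05, 197, 206 and 169 probe sets passed at 2, 4 and 6 hours and 465 for the trend. The causes were not tested. The checks of Pkm, Pfkm, Bsg, Dlst, Tkt, Tubb3, Nptx1 and Ttr under alternatives were added after seeing the data. No paired analysis was possible because the samples form 1 group. The number of arrays limits the precision.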
